A study of Mus musculus with 2 samples.

Results

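Desmosomes are button-like junctions that tie the keratin filaments of neighbouring epithelial cells together, and 10 genes of these junctions and their close relatives were followed here, out of 31053 genes in the count tables. They are Dsp, Jup, Pkp1, Pkp3, Perp, Dsg2, Dsg3, Dsc2, Ppl and Evpl, taken by symbol, and each matched 1 identifier. Desmoglein and desmocollin cadherins (Dsg2, Dsg3, Dsc2) reach across the gap between cells, armadillo proteins (Jup, Pkp1, Pkp3) bind their tails, and desmoplakin (Dsp) connects this plaque to keratin. Perp is a membrane protein of the same junctions. Periplakin (Ppl) and envoplakin (Evpl) are plakins related to desmoplakin that build the scaffold of the cornified envelope in stratified epithelia, and Ppl is also found outside them. In stratified epithelia the make-up of desmosomes is known to differ between the basal layer and the layers above it.

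The cells came from cervices of ovariectomised C57BL6/129 females, operated on at 7 to 8 weeks of age and left for 2 weeks, with the transition zone and vagina cut away. Control mice were then left untreated for 15 days. Progesterone mice first had 2 days of estradiol (E2) injections in corn oil, at 100 µg each day, which induces the progesterone receptor, and then a 25 mg pellet with a nominal release of 1 mg per day over 21 days. Each group was a pool of 9 mice read as 1 10x Genomics 3′ library, and both groups lacked ovaries. The control mice had no injections, priming or sham pellet, so progesterone cannot be told apart from these. With 1 library per group there is no replicate and no test between groups, and the bracketed 95% intervals cover counting error only.

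The control library kept 4579 cells with a median of 3733 unique molecular identifiers (UMIs, counted RNA molecules), and the progesterone library kept 8541 cells with a median of 4151. The 10 genes had 71843 and 85512 UMIs in them, and the libraries shared 19 barcodes. Clusters were made without the 10 genes and named from markers, with thresholds adjusted after the clusters had been seen. Basal squamous-like cells (Krt5, Krt14, Col17a1) numbered 1411 in control and 3464 with progesterone, suprabasal squamous-like cells (Krt13, Krt10, Krtdap) 1248 and 920, and luminal-like cells (Krt8, Krt18, Krt19) 220 and 1984. All 220 control luminal-like cells and 1945 of the progesterone ones were in clusters that also scored for mucous markers such as Muc5b and Agr2. Different clusters held most of a class in each library. Basal control cells were mostly in clusters 1 and 5 and basal progesterone cells in 5 and 7. Suprabasal control cells were mostly in clusters 3 and 11 and suprabasal progesterone cells in 0. Luminal control cells were mostly in cluster 12 and luminal progesterone cells in 17 and 22. Summed basal markers were 31696 CPM (UMIs of a gene per 1000000 UMIs of the class) in control basal-like cells and 13093 with progesterone. The part of this in the differences below was not tested. Krt13 did not by itself part the suprabasal from the luminal class. In control it was higher in luminal-like than in suprabasal-like cells, at 5031 against 1833 CPM. With progesterone it was lower there, at 1413 against 3364 CPM.

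Free RNA gives every droplet some UMIs of abundant genes, so the levels in cells that should lack desmosomes set a floor. Over neutrophil-like, macrophage-like, fibroblast-like and blood endothelium-like cells of both libraries, Dsp lay between 76.6 and 403 CPM, Perp between 33.5 and 447 and Jup between 11.2 and 115. The same range was 0 to 16.2 for Dsg3, 0 to 43.2 for Dsc2, 0 to 22.3 for Dsg2, 10.0 to 145 for Ppl and 0 to 21.6 for Evpl. The 145 CPM of Ppl was in 77 control fibroblast-like cells and rested on 13 UMIs, and its other 7 levels reached 40.3. The 22.3 CPM of Dsg2 was in the same cells on 2 UMIs, and its next level was 21.9 in progesterone macrophage-like cells. Progesterone macrophage-like cells were at the upper end for several of the genes, and they also held 1794 CPM of the basal keratin Krt5 against 309 in control macrophage-like cells. The erythrocyte-like cluster (32 control and 143 progesterone cells), which had keratin Krt16 among its leading genes, held 768 and 343 CPM of Dsp and was not counted in these ranges.

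Dsp is on chromosome 13 at 38151294 to 38198577 (plus strand) and Jup, which encodes plakoglobin, on chromosome 11 at 100368958 to 100397763 (minus strand), both protein-coding in GRCm38. They encode the plaque proteins that bind each other in every desmosome. Of the 10 genes, only these 2 are in the RefSeq promoter table used (GRCm38.p6), so their start regions are shown. The 250 bases before each RefSeq start, which for Jup lies upstream of the gene's annotated end given above, are given 5′ to 3′ on the gene's strand, chr13:38151044-38151293 for Dsp and chr11:100397791-100398040 for Jup, with GC boxes (GGGCGG on either strand) in capitals.
Dsp: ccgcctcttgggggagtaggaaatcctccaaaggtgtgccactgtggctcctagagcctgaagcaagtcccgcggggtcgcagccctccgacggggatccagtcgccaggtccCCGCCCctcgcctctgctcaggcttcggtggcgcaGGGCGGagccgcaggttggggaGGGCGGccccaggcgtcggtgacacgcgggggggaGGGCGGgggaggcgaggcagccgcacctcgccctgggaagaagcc
Jup: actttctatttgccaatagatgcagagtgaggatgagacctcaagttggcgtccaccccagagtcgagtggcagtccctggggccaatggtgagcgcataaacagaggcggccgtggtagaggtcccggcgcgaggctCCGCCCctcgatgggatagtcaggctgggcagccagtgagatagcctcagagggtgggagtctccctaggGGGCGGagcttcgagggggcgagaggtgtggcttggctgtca
Dsp held 4 GC boxes and Jup 2, and a GC box was found in 32.7% of 32851 promoter windows of this length. GC content was 72.4% in Dsp and 62.0% in Jup, against a median of 52.4% over all windows. No match on either strand was found in either window to AP-1 (TGANTCA, in 6.75% of all windows), the E-box (CANNTG, 66.2%), the progesterone response element (0.387%) or the estrogen response element (0.0639%), and no GC box overlapped another. This says only that these letters are not in these windows.

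Among the plakins, Dsp was highest in suprabasal-like cells and lowest in luminal-like cells of both libraries, while Ppl and Evpl were placed differently. Dsp stood at 1204 CPM in basal-like, 1874 in suprabasal-like and 712 in luminal-like cells of the control library, and at 639, 1572 and 450.2 CPM with progesterone. The luminal progesterone level of Dsp lay just above the highest background level. That level, 403 CPM, was in 45 control blood endothelium-like cells, on 28 UMIs, which also held 1801 CPM of Krt5. Background levels of Dsp in the progesterone library ran from 76.6 to 355 CPM. Ppl (chromosome 16, 5086291 to 5132421, minus strand) stood at 31.2, 82.5 and 509 CPM in basal-like, suprabasal-like and luminal-like control cells, and at 26.6, 129.7 and 195 CPM with progesterone. Ppl was therefore lowest in the basal layer and highest in the luminal layer of both libraries. Evpl (chromosome 11, 116220559 to 116238077, minus strand) stood at 68.8, 140.1 and 349.6 CPM in the same control layers, and at 31.4, 108 and 56.3 CPM with progesterone. Evpl was thus highest in luminal-like cells of the control library but in suprabasal-like cells of the progesterone library.

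The armadillo genes were highest in suprabasal-like control cells, and Pkp1 and Pkp3 were lowest in luminal-like cells. Jup read 169, 346 and 174 CPM in basal-like, suprabasal-like and luminal-like control cells and 131, 340.2 and 183 CPM with progesterone, so its luminal level was at or above its basal level. Pkp1 (plakophilin 1; chromosome 1, 135871395 to 135919207, minus strand) read 197, 369 and 114 CPM in control and 104, 206 and 62.2 CPM with progesterone. Pkp3 (plakophilin 3; chromosome 7, 141078218 to 141090510, plus strand) read 162, 201 and 84.2 CPM in control and 112, 98.2 and 52.8 CPM with progesterone. The luminal progesterone levels of Pkp1 and Pkp3 lay below those of macrophage-like cells of the same library, 71.4 and 69.5 CPM, the group that held the Krt5, and above those of its neutrophil-like, fibroblast-like and blood endothelium-like cells, 0 to 17.6 CPM for Pkp1 and 10.0 to 30.2 CPM for Pkp3. Whether these luminal levels exceed free RNA was not settled. Suprabasal-like over basal-like Pkp3 was 1.24 [1.14, 1.34] in control and 0.875 [0.798, 0.959] with progesterone.

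The 3 cadherin genes, all on chromosome 18, had 3 different layer patterns. Dsg2 (20558074 to 20604521, plus strand), the desmoglein also known from simple epithelia, was lowest in the suprabasal layer: 48.0, 16.3 and 42.7 CPM in basal-like, suprabasal-like and luminal-like control cells and 45.2, 16.1 and 43.5 CPM with progesterone. The 2 libraries had nearly the same value of Dsg2 in each layer, although within clusters it was lower with progesterone in 5 of 6, such as 70.7 against 40.9 CPM in cluster 5. Its suprabasal levels lay within its background range. Dsg3 (20510274 to 20547459, plus strand), the desmoglein known from the lower layers of epidermis and from mucosa, read 73.3, 87.7 and 58.3 CPM in control and 28.9, 61.0 and 20.5 CPM with progesterone. Its luminal progesterone level was near the 16.2 CPM of macrophage-like cells there. Dsc2 (desmocollin 2; 20030633 to 20059554, minus strand) had a clear suprabasal peak, with 69.7, 324 and 120.4 CPM in control and 38.2, 233 and 94.3 CPM with progesterone. Perp (chromosome 10, 18845020 to 18857073, plus strand) followed the same order, with 923, 1948 and 1029.5 CPM in the control layers and 709, 1982.5 and 753 CPM with progesterone.

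**Figure D1:**
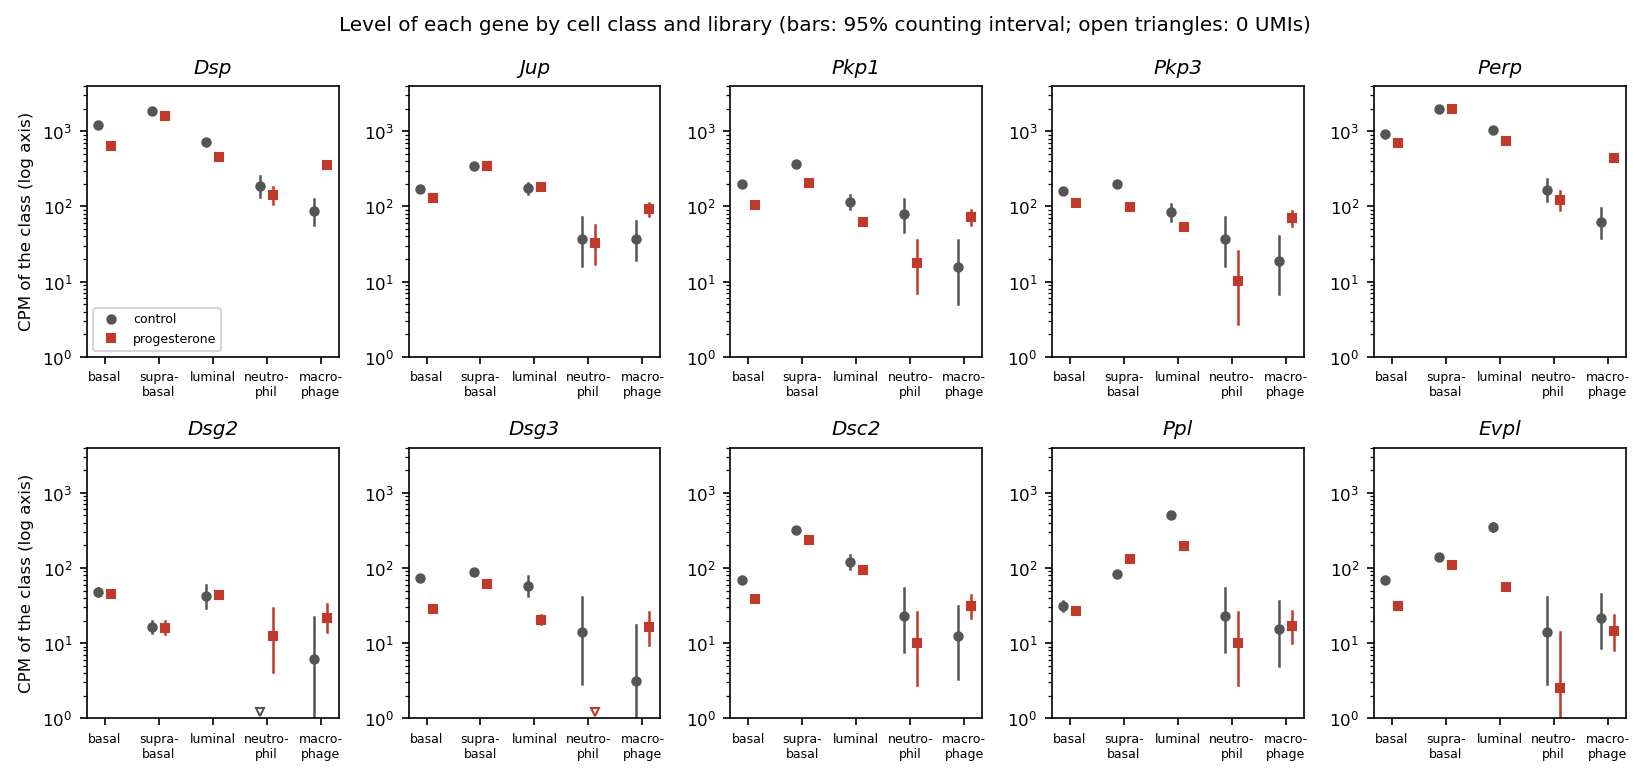
Level of each of the 10 genes (CPM of the class, log axis) in basal, suprabasal and luminal-like cells and in neutrophil-like and macrophage-like cells, for the control (grey circles) and progesterone (red squares) libraries; bars are 95% counting intervals and open triangles mark 0 UMIs. Dsc2 and Perp peak in the suprabasal layer, Dsg2 dips there, and Ppl is highest in the luminal layer of both libraries.

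Suprabasal-like cells had more RNA of most of these genes than basal-like cells of the same library. They also held more of the summed basal markers, 33949 against 31696 CPM in control and 16994 against 13093 with progesterone. In control, 5 of the 10 were at least 2-fold higher, against 5.6% of the 11098 genes with at least 20 UMIs over both sums: Jup 2.05 [1.91, 2.20], Perp 2.11 [2.05, 2.18], Dsc2 4.64 [4.20, 5.15], Ppl 2.64 [2.25, 3.12] and Evpl 2.04 [1.82, 2.28]. Dsg2 alone was at least 2-fold lower, at 0.340 [0.273, 0.421], against 13% of all genes, with a suprabasal level within its background range, whose top rested on 2 UMIs. With progesterone 7 of the 10 were at least 2-fold higher, against 5.03% of 12032 genes, with Dsc2 at 6.09 [5.55, 6.69], Ppl at 4.87 [4.33, 5.48] and Evpl at 3.45 [3.08, 3.88]; Dsg2 was again lower, at 0.356 [0.286, 0.439], against 11.3% of genes. The median log2 ratio of the 10 genes was 0.96 in control and 1.34 with progesterone, against -0.19 and -0.04 over all genes tested. Dsp, at 2.46, and Dsg3, at 2.11, passed 2-fold with progesterone, and in control their log2 ratios were 0.64 and 0.26.

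The number of genes at least 2-fold higher in control rested on cluster 11, a set of 370 control and 10 progesterone cells led by Krt16 and Krt6b, keratins of activated or wounded epithelium. This cluster made up 8.08% of control cells and 0.117% of progesterone cells. Of 21 sums of epithelial clusters with at least 40 cells, control cluster 11 had the highest level of 7 of the 10 genes: Dsp 3022, Perp 3074, Pkp1 682, Dsc2 618, Jup 573, Pkp3 305 and Dsg3 106 CPM. It also had the lowest Dsg2, 9.72 CPM. The 10 progesterone cells of this cluster held 2733 CPM of Dsp and 3641 of Perp, close to the control ones. Without cluster 11, a choice made after seeing the data, no gene was 2-fold higher in suprabasal-like than basal-like control cells: Jup came to 1.08, Perp to 1.23, Dsc2 to 1.59, Ppl to 1.94 and Evpl to 1.25, and Dsp turned to 0.867 and Pkp1 to 0.722. Dsg2 stayed lower, at 0.441, and the progesterone ratios barely moved, with Dsc2 at 5.98 and Ppl at 4.85. The suprabasal-like control cells left were 794 of cluster 3 and 84 of cluster 0. Control cluster 0 held 1969 CPM of Dsp, 1768 of Perp, 198 of Dsc2, 87.2 of Ppl and 138 of Evpl. Control cluster 3 held 974, 1086, 104, 58.7 and 82.1 CPM of them, and basal-like control cells 1204, 923, 69.7, 31.2 and 68.8. Every member but Dsg2 was thus higher in control cluster 0 than in basal-like control cells.

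**Figure D2:**
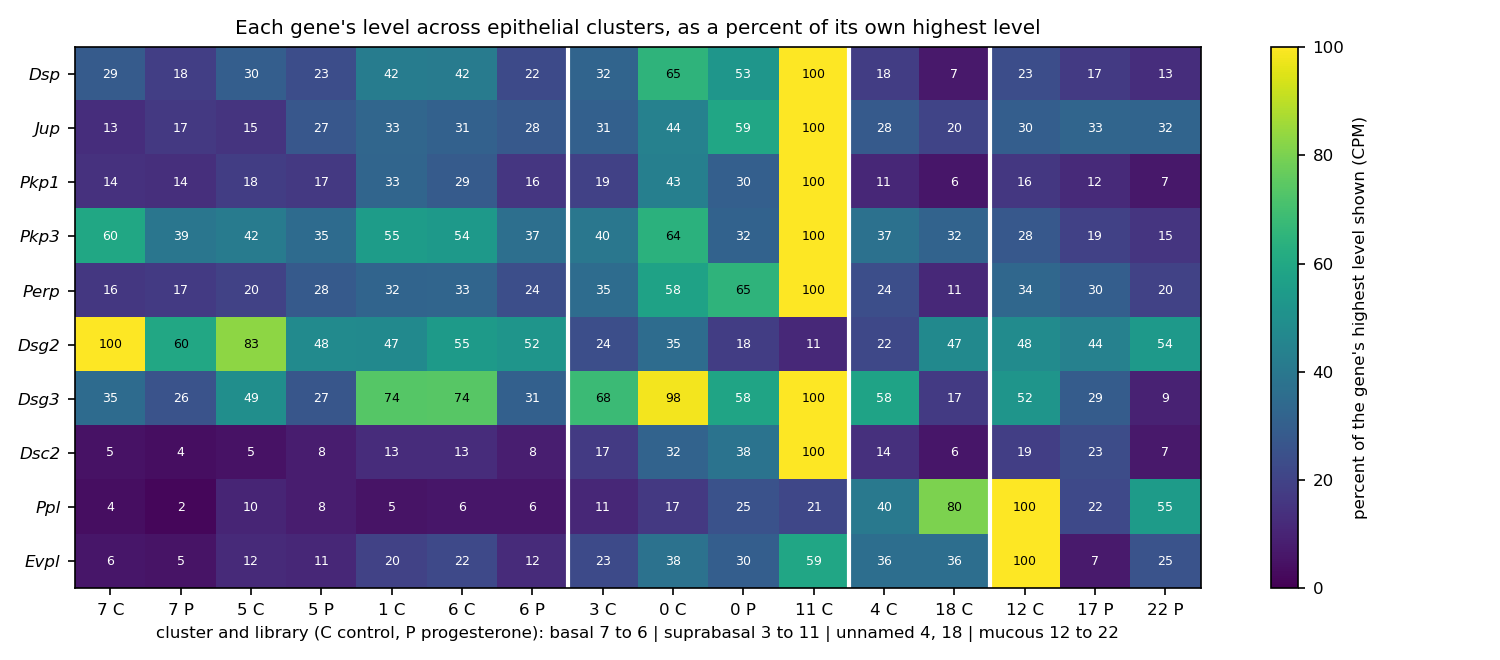
Level of each gene (rows) in 16 sums of epithelial clusters (columns, C control and P progesterone) as a percent of the gene's own highest CPM among them, written in each cell; white lines part basal, suprabasal, unnamed and mucous clusters. Control cluster 11 is at 100 for 7 genes, control cluster 7 for Dsg2, and control cluster 12 for Ppl and Evpl.

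Between luminal-like and basal-like cells few of the genes were 2-fold apart, and Ppl was higher in luminal-like cells of both libraries. In control, Ppl was 16.3 [13.7, 19.4] times and Evpl 5.08 [4.35, 5.93] times its basal-like level, and these 2 were the members at least 2-fold higher, a class that held 17.7% of 10479 genes; no member was 2-fold lower, against 18.5%. With progesterone Ppl was 7.31 [6.59, 8.12] times and Dsc2 2.46 [2.23, 2.73] times its basal-like level, against 19.4% of 12597 genes at least 2-fold higher. Pkp3 was 0.471 [0.427, 0.519], against 12.7% of genes at least 2-fold lower. Evpl was at 1.80 [1.59, 2.03]. Basal-like Ppl lay within its background range, so the Ppl ratios are against a level that cannot be told apart from free RNA. The median log2 ratios of the members were -0.05 and 0.02, against 0.06 and 0.16 over all genes, so the shares past 2-fold were near or below the background.

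The share of cells with a UMI showed the same placing of Ppl. After each cell was thinned to 2000 UMIs, Ppl was found in 59.9% [51.6, 67.7] of 152 control luminal-like cells and 30.5% [28.3, 32.8] of 1714 progesterone ones, against 5.4% and 4.6% of basal-like cells. In macrophage-like cells the share was 3.5% in control and 2.1% with progesterone. Unthinned, the share was 70.0% of control luminal-like cells (median 2735.5 UMIs) and 51.2% of progesterone ones (median 4819), and in macrophage-like cells 2.6% (median 1467) and 3.7% (median 1809). Evpl was found in 48.0% [39.9, 56.3] of the thinned control luminal-like cells and in 10.7% [9.3, 12.2] of the progesterone ones, with 1.8% and 2.6% of macrophage-like cells. Thinning left out 68 control and 270 progesterone luminal-like cells. It also left out most macrophage-like cells, whose medians lie below 2000 UMIs, so their shares come from the deeper droplets. In luminal-like progesterone cells, Pkp1, at 10.4%, Pkp3, at 10.6%, and Dsg3, at 4.1%, were found about as often as in macrophage-like cells, at 9.8%, 9.8% and 3.6%.

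Between the libraries, most of the 10 genes read lower with progesterone, and the extent differed by gene and layer. In basal-like cells all 10 ratios of progesterone over control were below 1, from 0.394 to 0.943, with a median log2 ratio of -0.70 against 0.02 over 12042 genes. Dsg3, at 0.394 [0.347, 0.448], and Evpl, at 0.456 [0.401, 0.518], were at least 2-fold lower, against 7.04% of all genes; no member was 2-fold higher, against 9.62%. Pkp1 at 0.527 [0.490, 0.567], Dsp at 0.531 [0.515, 0.546] and Dsc2 at 0.549 [0.486, 0.620] lay just short of 2-fold, while Dsg2, at 0.943 [0.825, 1.08], and Ppl, at 0.854 [0.722, 1.01], had intervals that span 1. Cycling markers summed to 1017 CPM in control basal-like cells and 375 with progesterone; without the cycling clusters 6 and 9, chosen after seeing the data, the log2 ratios of Dsg3 and Evpl were -1.34 and -1.13, as with them.

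Within clusters, the basal difference was not the same for all genes. Of the 6 basal and suprabasal clusters with at least 40 cells in each library, Dsp, Pkp1, Pkp3, Dsg3 and Evpl were lower with progesterone in all 6. Their ratios ran from 0.538 to 0.835 for Dsp and from 0.416 to 0.731 for Dsg3. Jup was higher in 4 of the 6 and Perp in 5 of the 6. Dsc2 was higher in 3 of the 6, and Ppl in 3 of the 5 with its UMIs in both libraries. In cluster 9, with 47 control and 191 progesterone cells, Dsc2 was at 2.02 and Ppl had no control UMIs. In basal-like cluster 5, with 432 control and 1527 progesterone cells, Jup went from 85.2 to 155 CPM, a ratio of 1.82 [1.42, 2.38]. Perp in the same cluster went from 605 to 874 CPM, a ratio of 1.44 [1.31, 1.59], and Dsc2 from 30.1 to 48.6 CPM, a ratio of 1.61 [1.06, 2.58]. Jup and Perp had ratios of 0.778 and 0.768 over the whole basal class, so their direction turned between the class and this cluster. Cluster 1, with 597 control and 26 progesterone cells, took part in the class alone and held 190.0 CPM of Jup and 990.2 of Perp in control. Control cells of cluster 5 were shallow, with a median of 1387 UMIs against 4516 for progesterone cells, and the part of depth in the difference was not tested.

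In suprabasal-like cells the libraries were closer. Pkp3 was the member at least 2-fold lower, at 0.488 [0.444, 0.537], against 5.39% of 10893 genes, and no member was 2-fold higher, against 10.3%. Jup, at 0.984, Perp, at 1.02, and Dsg2, at 0.987, had intervals that span 1, and Ppl was higher with progesterone at 1.57 [1.41, 1.75]. The median log2 ratio of the members was -0.31, against 0.18 over all genes. These values too depended on cluster 11: without it Ppl came to 2.13, Dsc2 to 2.07, Jup to 1.85, Perp to 1.73, Dsp to 1.49, Pkp1 to 1.43 and Evpl to 1.24, while Dsg2, at 0.758, Pkp3, at 0.768, and Dsg3, at 0.815, were below 1. Those sums held 794 control cells of cluster 3 against 84 of cluster 0, but 47 and 863 with progesterone. In cluster 0 Pkp3 was at 0.495 [0.377, 0.660] and Ppl at 1.51 [1.02, 2.33]. Also there, Jup read 252 CPM in control and 339 with progesterone, Perp 1768 and 1996, and Dsc2 198 and 235. Dsp read 1969 and 1590, Pkp1 295 and 207, Evpl 138 and 109, Dsg3 104 and 61.8 and Dsg2 30.2 and 15.4. Dsp, Pkp1 and Evpl were thus above 1 without cluster 11 but lower with progesterone within cluster 0.

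In luminal-like cells Evpl, Dsg3 and Ppl were at least 2-fold lower with progesterone, against 7.05% of 11187 genes, and no member was 2-fold higher, against 16.1%. Evpl was at 0.161 [0.139, 0.187], Dsg3 at 0.351 [0.253, 0.497] and Ppl at 0.383 [0.343, 0.428]. Jup, at 1.05 [0.884, 1.27], and Dsg2, at 1.02, had intervals that span 1. The median log2 ratio of the members was -0.67, against 0.05 over all genes. The luminal comparison sets control cluster 12 against progesterone clusters 17 and 22, which share few cells: cluster 12 had 209 control and 14 progesterone cells, cluster 17 had 6 and 969, and cluster 22 had 5 and 962. Library and cluster cannot be told apart here. Squamous markers moved with it, since Krt5 stood at 2758 CPM in control luminal-like cells and 698 with progesterone, and Krt13 at 5031 and 1413.

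**Figure D3:**
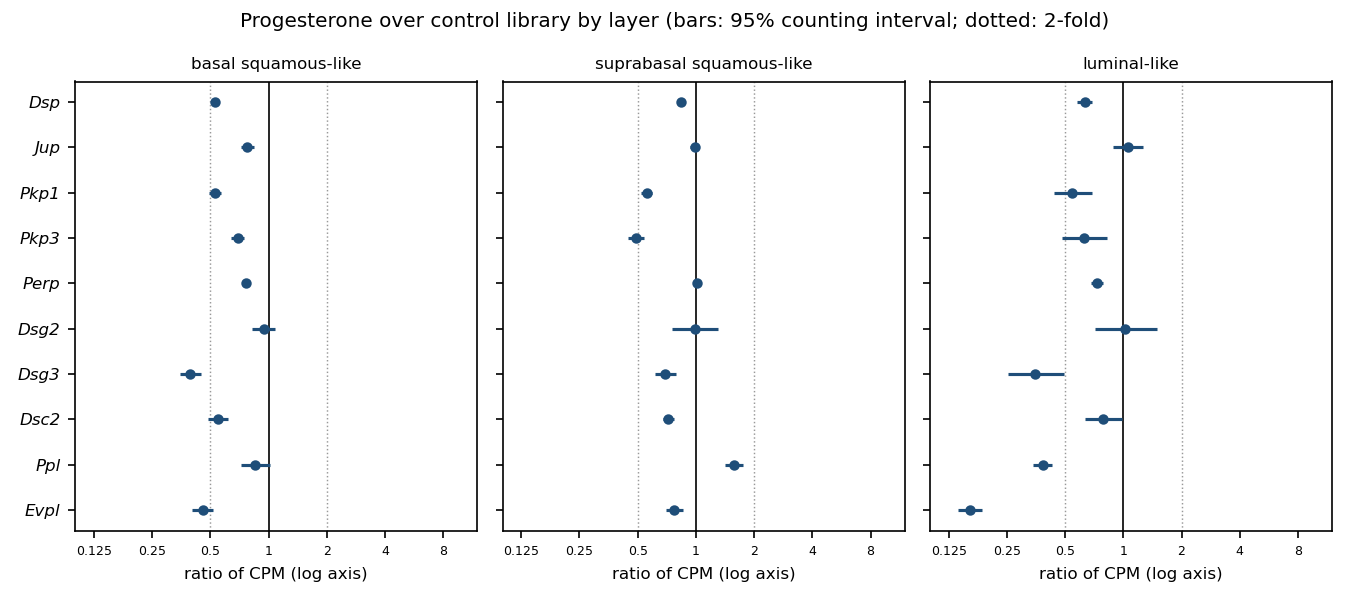
Ratio of progesterone over control CPM (log axis) for each gene in basal, suprabasal and luminal-like cells; bars are 95% counting intervals and dotted lines mark 2-fold. All 10 points are below 1 in the basal layer, and Evpl in the luminal layer, at 0.161, is the lowest point plotted.

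The mucous clusters of the progesterone library differed among themselves in these genes. Cluster 22, led by the secreted goblet-cell product Clca1, had 289 CPM of Ppl and 92.6 of Evpl, while cluster 17, led by Agr2, Tff1 and Muc5b, had 117 and 26.3. Dsc2 was the other way round, with 43.2 CPM in cluster 22 and 143 in cluster 17. The control mucous cluster 12, led by Psca, had 527 CPM of Ppl and 363 of Evpl, the highest of all epithelial sums.

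Olfm4, a secreted glycoprotein, is the gene the study uses to mark luminal precursors. Mucous cells with at least 2 Olfm4 UMIs were set against those with 0, and cells with 1 were left out. This gave 885 positive and 882 negative cells with progesterone, with 178 left out, and 102 and 90 in control, with 28 left out. In the progesterone library no member was 2-fold apart, against 3.84% of 10787 genes at least 2-fold higher and 1.93% at least 2-fold lower. Ppl read 248 CPM in positive and 147 in negative cells, a ratio of 1.69 [1.53, 1.87], and Evpl 74.1 and 40.4 CPM, a ratio of 1.83 [1.52, 2.21]. Both plakins were thus higher in positive cells, while Dsc2 read 64.3 and 126.5 CPM, a ratio of 0.508 [0.438, 0.588], and Pkp1 45.3 and 81.6 CPM, a ratio of 0.556 [0.465, 0.664], on either side of the 71.4 CPM of macrophage-like cells. The median log2 ratio of the members was -0.17, against 0.08 over all genes. Krt5 was at 394 CPM in positive and 1038 in negative cells.

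The differences of Ppl and Dsc2 were smaller within both clusters. In cluster 22 those of Evpl and Pkp1 were smaller too, while in cluster 17 Evpl turned and Pkp1 barely moved. Of cluster 22, 68.1% was Olfm4-positive and of cluster 17, 23.4%, and the part of this was not tested. In cluster 22, with 655 positive and 215 negative cells, Ppl read 299 and 259 CPM, a ratio of 1.15 [1.00, 1.33]. Evpl was at 1.30 [1.00, 1.71] and Dsc2 at 0.960 [0.672, 1.40] there. In cluster 17, with 227 positive and 658 negative cells, Ppl was at 1.03 [0.845, 1.25], Dsc2 at 0.823 [0.681, 0.989] and Evpl at 0.521 [0.301, 0.854], the last on 19 and 105 UMIs. Evpl was therefore lower in positive cells of cluster 17 and higher in those of cluster 22. Pkp1 was at 0.568 [0.425, 0.748] in cluster 17 and 0.855 [0.612, 1.21] in cluster 22. Dsg3 passed 2-fold in cluster 22, at 2.37 [0.928, 7.72], on 37 and 5 UMIs.

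In the control library Olfm4-positive cells had more Dsp, Ppl, Evpl and Dsg3. Dsp read 867 CPM in positive and 459.8 in negative cells, a ratio of 1.89 [1.53, 2.34]. Ppl read 633 and 327 CPM, a ratio of 1.94 [1.51, 2.51], and Evpl 410.1 and 202 CPM, a ratio of 2.03 [1.48, 2.84]. Dsg3 was at 2.68 [1.17, 7.17] on 34 and 7 UMIs, and Dsg2 at 0.455 [0.208, 0.981] on 14 and 17 UMIs. Evpl and Dsg3 were thus at least 2-fold higher, against 9.07% of 4433 genes, and Dsg2 at least 2-fold lower, against 6.41%. None of these 3 was called after thinning each cell to 2000 UMIs, where the log2 ratio was 0.84 for Evpl and 0.24 for Dsg3. Dsg2 then had too few UMIs to be tested, with a log2 ratio of 0.63. At that depth Dsg2 was found in 9 of 84 positive and 4 of 49 negative cells, and Dsg3 in 8 and 3. Within cluster 12, with 99 positive and 83 negative cells, Dsp was at 1.97 [1.57, 2.50], Ppl at 1.78 [1.38, 2.32] and Evpl at 1.91 [1.38, 2.69]. Positive control cells were deeper, with a median of 4096 UMIs against 2091.5, and after thinning to 2000 UMIs Ppl was found in 65.5% [54.3, 75.5] of 84 positive and 49.0% [34.4, 63.7] of 49 negative cells. The same shares before thinning were 84.3% and 58.9%.

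**Figure D4:**
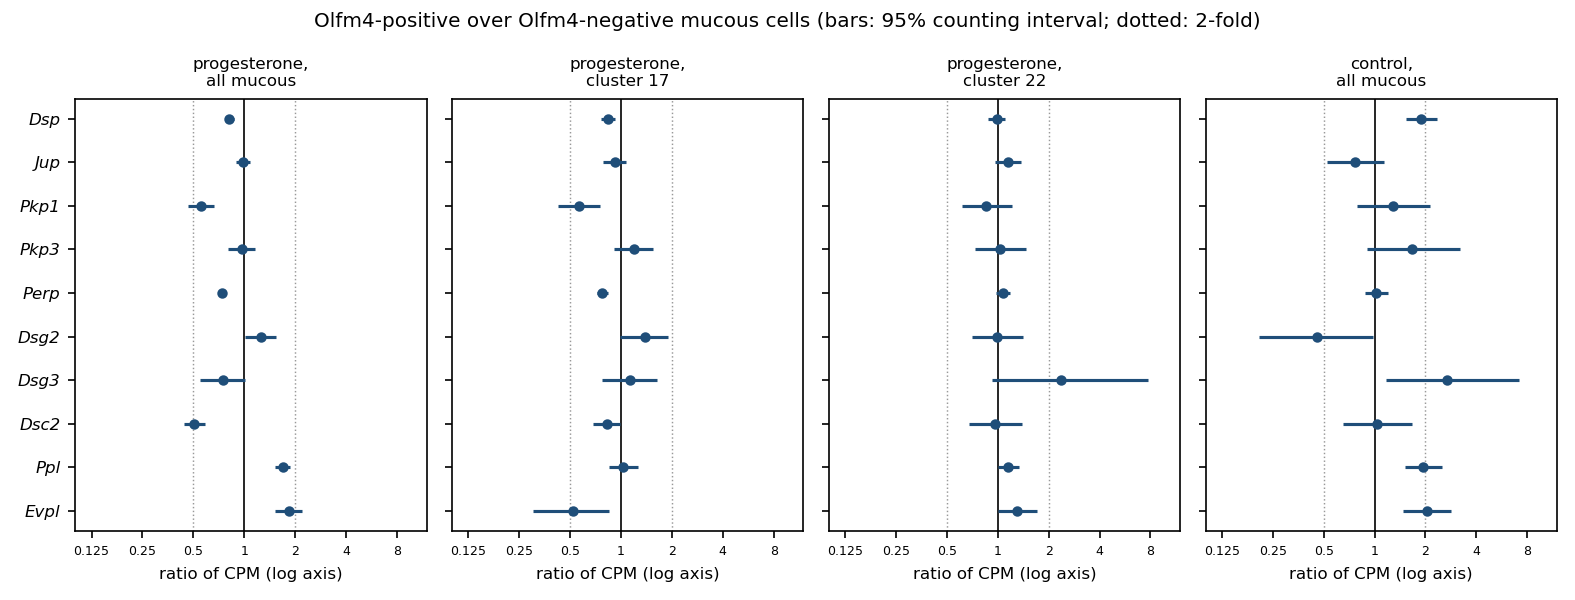
Ratio of CPM in Olfm4-positive over Olfm4-negative mucous cells (log axis) for each gene, over all mucous cells of the progesterone library, within its clusters 17 and 22, and over all mucous cells of the control library; bars are 95% counting intervals and dotted lines mark 2-fold. Ppl is at 1.69 over all progesterone mucous cells but at 1.03 and 1.15 within the clusters.

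Other genes of the junctions, from lists drawn up with earlier results of these data known, were read in the same fits. Of 8 further desmosome genes, 5 could be tested in suprabasal-like over basal-like control cells. Dsg1a, at 18.6 [12.3, 29.6], Dsg1b, at 6.18 [4.96, 7.77], and Dsc1, at 8.61 [3.73, 24.4], cadherins of the upper layers, were at least 2-fold higher, against 5.6% of all genes. Dsc3 was at 0.994 and none was 2-fold lower, against 13%. Dsg1b was among the leading genes of cluster 11, and these ratios are not given without that cluster. Dsg1a and Dsg1b are close copies, so reads may be split between them. With progesterone both were at least 2-fold lower, against 7.04% of genes in basal-like and 5.39% in suprabasal-like cells. They stood at 0.0330 [0.00377, 0.134], on 2 against 23 UMIs, and 0.0454 in basal-like cells. In suprabasal-like cells they stood at 0.0339 and 0.192, where the sums held 370 control and 10 progesterone cells of cluster 11. Of 6 tested there, Dsc1 was also at least 2-fold lower, and the plakophilin Pkp2 at least 2-fold higher, against 10.3% of genes. In luminal-like cells 1 of 3 tested, Dsc3, was at least 2-fold higher with progesterone, against 16.1%. Pkp2, at 3.94, and Dsg1b, at 26.1, were higher in suprabasal-like than basal-like progesterone cells, 2 of 4 tested, against 5.03% of genes. In luminal-like over basal-like cells Pkp2 was at 35.3 [18.2, 78.4] with progesterone and Dsc3 at 0.182 [0.157, 0.211]. There 19.4% of genes were at least 2-fold higher and 12.7% lower.

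Of 4 other plakins, Dst and Plec, which anchor keratin at hemidesmosomes, were at least 2-fold lower in suprabasal-like than basal-like control cells. They stood at 0.287 and 0.416, against 13% of all genes at least 2-fold lower, and none was 2-fold higher, against 5.6%. In the cornified envelope list Tgm1, Tgm5 and Scel were at least 2-fold higher in luminal-like than basal-like cells of both libraries, 3 of 5 tested in control and 3 of 4 with progesterone, against 17.7% and 19.4% of all genes. Tgm5, a crosslinking enzyme, was at 11.9 in control and 18.2 with progesterone. Ivl, an envelope precursor, was at least 2-fold lower in both, at 0.451 on 4 against 74 UMIs, with an interval that spans 1, and 0.114 [0.0359, 0.277] on 5 against 76. Tgm1, at 0.0923, Tgm5, at 0.121, and Scel, at 0.209, were at least 2-fold lower with progesterone in luminal-like cells, against 7.05% of all genes. They were all of the 3 that could be tested out of 6. Of 6 tight junction genes, 5 in control and 4 with progesterone were at least 2-fold higher in luminal-like than basal-like cells, against the same 17.7% and 19.4%, and none was lower. Of the adherens junction genes, none of 9 tested in basal-like cells was 2-fold apart between the libraries, against 9.62% of all genes higher and 7.04% lower. None of 8 tested in luminal-like cells was either, against 16.1% and 7.05%. With so few genes, counts of 0 are not far from these shares. In suprabasal-like cells 2 of 9 were at least 2-fold higher with progesterone, Cdh3 at 2.35 and Ctnnd1 at 2.26, against 10.3% of all genes. Among 7 squamous transcription factors Trp63, the basal regulator, was at 0.421 and 0.386 in suprabasal-like over basal-like cells of the 2 libraries, and Grhl1 at 4.62 and 6.20.

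Across 14 sums of a named class and library with at least 50 cells, the gene whose log2 CPM was most like that of a member was another member for Dsg3 (Pkp3, r = 0.943). The closest genes were Serpinb5 for Dsp (r = 0.956), Qars for Jup (0.941), Sfn for Pkp1 (0.955), Ckmt1 for Pkp3 (0.968) and Celsr2 for Perp (0.969). For Dsc2 the closest was Ly6d (0.965), with Perp next (0.953), and for Evpl it was Idi1 (0.925). Dsg2 was closest to Fgfr3 (0.853) and Ppl to Ly6g6e (0.958), and neither had another member among its 100 closest of 6302 genes, while the other 8 had 4 to 7. These correlations are a description, since the sums share 2 libraries, their depth and their free RNA. The sums also took in neutrophil-like, macrophage-like, fibroblast-like, blood endothelium-like and erythrocyte-like cells. The correlations thus cover epithelial against other cells as well as the epithelial layers.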

How the data were processed

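Cervix cells of 2 libraries, each a pool of 9 mice, were read as UMI counts per gene and barcode. These are raw whole-number counts as deposited; Cell Ranger 3.0.2 and the mm10 build are named per the submitters' processing notes, and empty droplets were not analysed here. Library totals were 21658684 (control) and 44811069 (progesterone) UMIs.

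A barcode was kept with 200 genes or more and no more than 20% of UMIs from mitochondrial genes, and the highest Scrublet scores were left out as doublets at 0.8% per 1000 cells (181 and 680). Cells were clustered with scanpy 1.11.5 (2000 variable genes, 30 components, 15 neighbours, Leiden resolution 1), without the 10 genes, Olfm4 and 6 context lists, and named from marker scores (at least 0.75, a lead of 0.45, 3 detected markers). UMIs were summed per class and library, scaled to CPM and compared as ratios with exact conditional binomial intervals; levels have exact Poisson and shares Clopper-Pearson intervals. A call needed 20 UMIs over both sums and 2-fold. The calls were tested on simulated counts.

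All 10 genes are named, with context-list genes past 2-fold, and likeness used log2(CPM + 10). The members and lists were chosen with earlier results of these data known. Of 31053 identifiers, 31011 were in the GENCODE annotation that gave the positions.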

Additional observations from a re-analysis of the deposited data

Results flagged for a closer look

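The ratios of 4 genes pointed in opposite directions in 2 settings with counting intervals that exclude 1 in both; with 1 library per group none of these differences was tested. Olfm4-positive over Olfm4-negative Dsp was 0.816 with progesterone and 1.89 in control. The same ratio of Dsg2 was 1.25 with progesterone and 0.455 in control, the latter on 14 and 17 UMIs. After thinning each cell to 2000 UMIs the control log2 ratio of Dsg2 was 0.63, on too few UMIs to be tested, so its direction is not settled. Suprabasal-like over basal-like Pkp3 was 1.24 in control and 0.875 with progesterone, and the control value was 0.777 without cluster 11. Progesterone over control Ppl was 1.57 in suprabasal-like and 0.383 in luminal-like cells.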

How the results depend on the processing

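No paired analysis was possible because each group is 1 library. Each comparison was repeated under 8 to 12 other settings. Members past 2-fold kept their direction in each of them in the 7 comparisons of layers and libraries (for example 60 of 60 values for suprabasal-like over basal-like control cells). In Olfm4-positive over Olfm4-negative control cells 32 of 33 did. There Dsg2 turned to a log2 ratio of 0.63 after thinning to 2000 UMIs, on too few UMIs to be tested. Of 90 counts of members past 2-fold, 68 stayed within 1.5 times the reported count. For progesterone over control in basal-like cells the count of 2 came to 5 with the members allowed in the clustering and to 1 with CPM without mitochondrial, ribosomal and top genes, with a mean over cells and with a keratin gate. In suprabasal-like cells the count of 1 came to 0 with the stricter cell filter (1000 genes, 10% mitochondrial), resolution 2, libraries clustered apart, the other CPM, the mean over cells and the keratin gate, to 4 (all lower) with no doublets left out, and to 2 with members in the clustering or, both then higher, without cluster 11. Suprabasal-like over basal-like control went from 6 to 1 without cluster 11. Luminal-like over basal-like control went from 2 to 4 with the stricter filter and 5 with the other CPM. For Olfm4 the progesterone count of 0 came to 1 with the other CPM, the keratin gate, at least 5 Olfm4 UMIs or thinning, and the control count of 3 to 1 with 0 or 1 UMI as negative and 0 after thinning; the keratin gate left 40 against 6 control cells and was not run. Over the 9 comparisons, 622 to 4047 of all genes passed 2-fold, 110 to 2825 with at least 100 UMIs and 3629 to 8016 with no filter on low counts. The cause of these changes was not tested. Luminal control values rest on 220 cells.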

Other observations

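Some clusters outside the named epithelial layers held levels of the 10 genes. The unnamed keratin clusters 18 and 4, led by Psca and by Sprr2d and Ltf, had 424 CPM of Ppl in 88 control cells and 213 CPM in 484 control cells, above the 82.5 CPM of control suprabasal-like cells. In cluster 8, an unnamed and shallow keratin cluster with 147 control and 801 progesterone cells, several members read lower with progesterone, with Dsp at 0.313 [0.256, 0.386] and Evpl at 0.185 [0.0980, 0.361]. In macrophage-like cells several read higher with progesterone, with Perp at 7.23 [4.63, 11.9] and Dsp at 4.11 [2.80, 6.27], beside Krt5 at 309 CPM in control and 1794 with progesterone.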
